A study of Mus musculus with 12 samples.

Results

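Prostaglandin synthesis, breakdown and signalling in mouse renal cortex were followed through 9 genes: Pla2g4a, Ptgs1, Ptgs2, Ptges, Ptgds, Slco2a1, Hpgd, Ptger3 and Ptger4. A gene was read from the probe set that carries its symbol and no other, and in case of several the one with the highest mean over the 12 arrays was to be used. Each of 8 genes had exactly 1 such probe set. Ptgs1 had none and is not analysed here. The 8 genes measured are part of 19938 genes read by the same rule.

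Renal cortex RNA was hybridised to Affymetrix mouse gene arrays, 3 arrays in each of 4 groups. GR-deficient AKI mice carried Pax8-Cre and floxed alleles of Nr3c1, the glucocorticoid receptor (GR) gene, on both chromosomes (Pax8-Cre;nr3c1 flox/flox), and were studied 24 hours after an intramuscular glycerol injection, a model of myoglobinuric acute kidney injury (AKI). GR-deficient healthy mice had the same alleles and belonged to an uninjected cohort. Control AKI mice (nr3c1 flox/flox, without Cre) received glycerol, and control healthy mice of that genotype did not. All 4 groups therefore carry the floxed alleles, and the genotype comparison includes any effect of Pax8-Cre itself. Pax8-Cre acts in renal tubular epithelium, so the other cells of the cortex keep the receptor gene. No vehicle injection is named for the healthy mice. The labels do not say that replicates came from separate animals, so p-values measure the spread between these samples.

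Prostaglandins are short-lived lipid signals made from arachidonic acid. Cytosolic phospholipase A2 (Pla2g4a) frees arachidonic acid from membranes, the cyclooxygenases (Ptgs1 and the inducible Ptgs2) turn it into prostaglandin H, and terminal synthases turn that into prostaglandin E (Ptges) or prostaglandin D (Ptgds). The transporter Slco2a1 carries prostaglandins into cells, where Hpgd, the NAD-dependent 15-hydroxyprostaglandin dehydrogenase, inactivates them. Ptger3 and Ptger4 encode the prostaglandin E receptors EP3 and EP4, of which EP3 mainly lowers and EP4 raises cyclic AMP. In the kidney these lipids act on blood flow, renin release and the handling of salt and water, and Ptgs2 is known in the macula densa and the neighbouring thick ascending limb. Glucocorticoids are known to repress Ptgs2 in many cell types.

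Ptgs2, Ptges and Hpgd were the members whose response to glycerol differed between the genotypes by the test given further on, and their promoters are shown for that reason. The 250 bases before each annotated start were taken from RefSeq on build GRCm38.p6, and each is written 5′ to 3′ along the gene. Ptgs2 lies on the plus strand (chr1:150099781-150100030), Ptges on the minus strand (chr2:30903298-30903547) and Hpgd on the plus strand (chr8:56294302-56294551). Capitals mark the searched motifs that were found.
Ptgs2: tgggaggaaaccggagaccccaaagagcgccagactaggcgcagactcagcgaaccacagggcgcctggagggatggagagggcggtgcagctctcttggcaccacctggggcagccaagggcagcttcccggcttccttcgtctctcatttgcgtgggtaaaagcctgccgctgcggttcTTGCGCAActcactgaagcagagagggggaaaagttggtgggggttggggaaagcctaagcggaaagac
Ptges: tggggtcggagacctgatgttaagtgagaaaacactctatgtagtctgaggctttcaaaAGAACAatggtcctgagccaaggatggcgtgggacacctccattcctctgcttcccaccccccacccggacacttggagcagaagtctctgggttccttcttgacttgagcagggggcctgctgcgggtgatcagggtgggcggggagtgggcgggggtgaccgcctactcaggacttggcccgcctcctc
Hpgd: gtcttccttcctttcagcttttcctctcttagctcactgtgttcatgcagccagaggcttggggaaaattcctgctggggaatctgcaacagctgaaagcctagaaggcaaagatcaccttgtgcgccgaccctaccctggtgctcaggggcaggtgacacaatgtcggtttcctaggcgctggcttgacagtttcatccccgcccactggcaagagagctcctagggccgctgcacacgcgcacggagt
A set of 8 motifs was searched on both strands in windows of 300 bases, which also hold 50 bases after the start. All 9 genes had a window, 10 windows in all, because Pla2g4a has a pair. The C/EBP palindrome TTGCGCAA was found in the Ptgs2 window at position -69, and 0.183% of 32851 windows of all genes hold it. The Ptgs2 window also held the E-box CACGTG at position 17 after the start, as 7.15% of windows do. AGAACA, one arm of the glucocorticoid response element, was found before Ptges at position -191, before Pla2g4a at -221 and before Ptgs1 at -204, and 19% of windows hold these letters. TATAAA, present in 13.6% of windows, was found in those of Slco2a1 (position -29), Pla2g4a (position -200) and Hpgd (position 5 after the start, outside the stretch printed). The AP-1 motif TGANTCA, present in 7.81%, lay at position -35 of the Ptgds window. No window of the 9 genes held the full glucocorticoid response element (AGAACA and TGTTCT with 3 free bases between, in 0.00913% of windows, and it contains the one-arm motif), the CRE TGACGTCA (1.79%) or the NF-kappaB motif (GGGA, any base and TTTCC, 0.411%). These are matches of letters and not measured binding sites.

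Values are log2 expression, on which 1 unit is a 2-fold difference, and they were compared for each gene across arrays and never between genes. Medians of the 12 arrays lay between 7.001 and 7.092. Nr3c1, the targeted gene, measured 8.10, 7.96 and 7.87 in GR-deficient AKI, 8.18, 8.13 and 8.21 in GR-deficient healthy, 8.82, 8.89 and 8.86 in control AKI and 9.65, 9.48 and 9.52 in control healthy cortex. It was lower in every GR-deficient array than in any control array. It averaged 8.17 ± 0.04 in GR-deficient healthy cortex and 9.55 ± 0.09 in control healthy cortex (SD, n = 3 each), a difference of -1.38 (limma adjusted p = 1.73e-05), and the difference in AKI cortex was -0.88 (adjusted p = 2.694e-05). Both control AKI replicate 1 and GR-deficient healthy replicate 1 lay away from the other arrays of their group. The first was alone on the second principal component (33.8, the next array 11.6) and the other on the third (34.8, the next 5.83). GR-deficient healthy replicate 1 also had the highest mean of 5 injured tubule markers among healthy arrays, 7.819, while the other 5 healthy arrays lay between 6.641 and 6.87. Calls of the members that these arrays change are given with and without them.

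**Figure D1:**
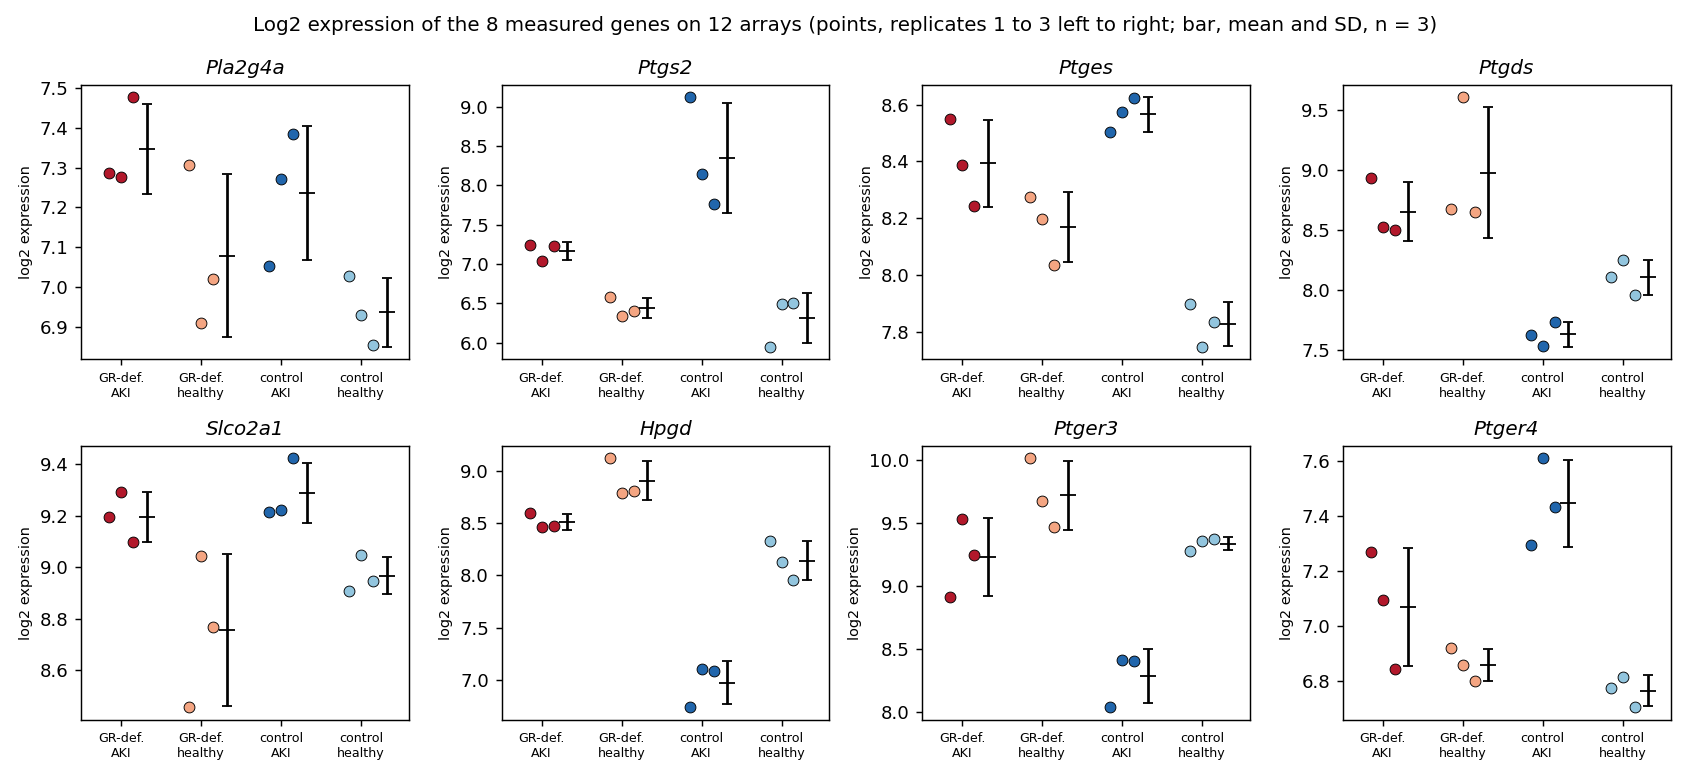
Log2 expression (y axis) of the 8 measured genes in the 4 groups (x axis, GR-deficient AKI, GR-deficient healthy, control AKI, control healthy). Points are the 3 arrays of a group and the bar beside them is the mean with its SD. Control AKI arrays hold the highest Ptgs2 values, 7.77 to 9.12, and the lowest Hpgd values, 6.74 to 7.10.

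In control mice, glycerol was followed by higher Ptgs2, Ptges and Ptger4 and by lower Hpgd and Ptger3. These 5 of 8 measured genes passed the test (3 higher, 2 lower), which asks for a Benjamini-Hochberg adjusted p under 0.05 from limma over all genes. By that test 28.7% of all 19938 genes passed, 13.6% higher and 15.1% lower. The median difference of the 8 genes was 0.31, against 0.00126 over all genes. In GR-deficient mice, 0 of the 8 genes passed, where 4.64% of all genes did, 3.29% higher and 1.35% lower, and their median difference was 0.217, against -0.0255 over all genes. At the looser cutoff of an unadjusted p under 0.05 from limma, Pla2g4a, Ptgs2, Slco2a1, Hpgd and Ptger3 differed there. The share of all genes at that cutoff was not counted, so it cannot be said whether these genes stand out. Arrays of control AKI and control healthy cortex did not overlap for any of the 8 genes, where this held for 39.6% of all genes. Arrays of GR-deficient AKI and GR-deficient healthy cortex did not overlap for 3 of the 8 (Ptgs2, Slco2a1 and Hpgd), where this held for 25.3% of all genes. Without both arrays that stand apart, 7 of the 8 genes passed in control mice and 2 of the 8 (Pla2g4a and Ptgs2) in GR-deficient mice, while 6974 and 1291 of all 19938 genes did, against 5715 and 926 with all arrays. Because cortex is a mixture, fewer cells of a type and less RNA per cell cannot be told apart in any of these values.

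**Figure D2:**
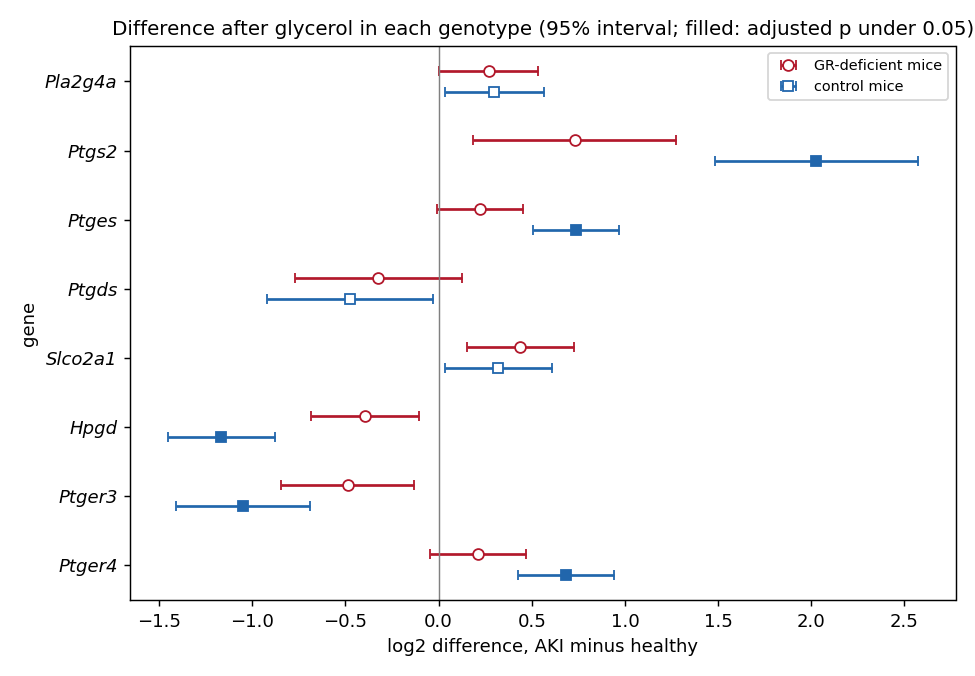
Log2 difference between AKI and healthy cortex (x axis) for each of the 8 genes (y axis), in GR-deficient mice (circles) and control mice (squares), with 95% intervals from the limma fit. Filled symbols passed at an adjusted p under 0.05, which 5 genes did in control mice and 0 in GR-deficient mice.

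Pla2g4a, which frees the arachidonic acid for the pathway, measured 7.29, 7.28 and 7.48 in GR-deficient AKI cortex and 7.31, 6.91 and 7.02 in GR-deficient healthy cortex. It measured 7.05, 7.27 and 7.38 in control AKI cortex and 7.03, 6.93 and 6.85 in control healthy cortex. The AKI arrays of the 2 genotypes overlapped, and so did the healthy arrays of the 2 genotypes. The difference after glycerol was 0.27 in GR-deficient mice (95% interval 0.0004176 to 0.5357, limma adjusted p = 0.2714) and 0.30 in control mice (0.03189 to 0.5672, adjusted p = 0.09422), and neither passed. The difference passed in control mice when control AKI replicate 1, the lowest array of its group, was left out (0.39, adjusted p = 0.0295). Without both arrays that stand apart it passed in GR-deficient mice (0.38, adjusted p = 0.0419) and in control mice (0.39, adjusted p = 0.00863). No difference between genotypes passed, and the interval of the genotype difference in AKI ran from -0.1575 to 0.3777. Pla2g4a lies on chromosome 1 close to Ptgs2, with 2 annotated genes, Gm19136 and Ptgs2os, between them in the RefSeq table.

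Ptgs2, the inducible cyclooxygenase, measured 9.12, 8.15 and 7.77 in control AKI cortex, against 5.95, 6.50 and 6.50 in control healthy cortex. All 3 arrays after glycerol lay above all 3 healthy arrays. The group averaged 8.34 ± 0.70 after glycerol and 6.32 ± 0.32 in healthy controls (SD, n = 3 each), a rise of 2.03 ± 0.255 (SE, 4.08-fold, 95% interval 1.483 to 2.573, limma adjusted p = 2.283e-05). This was the widest span of group means among the 8 genes, 2.028. In GR-deficient mice Ptgs2 measured 7.25, 7.04 and 7.23 in AKI cortex and 6.59, 6.33 and 6.40 in healthy cortex. These arrays did not overlap either, but the difference of 0.73 ± 0.255 (1.66-fold, 95% interval 0.1851 to 1.275) had an adjusted p of 0.1276 by limma and did not pass. Control AKI replicate 1, the array with 9.12, widened the spread that all groups share. Without it, the difference was 1.64 in control mice (adjusted p = 6.17e-06), and that in GR-deficient mice passed (0.73, adjusted p = 0.011).

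Ptgs2 was 2.26-fold lower in GR-deficient AKI cortex than in control AKI cortex (log2 difference -1.17 ± 0.255 SE, 95% interval -1.72 to -0.6299, limma adjusted p = 0.00464). The highest GR-deficient array, 7.25, was below the lowest control array, 7.77. Healthy arrays of the genotypes overlapped, with a difference of 0.12 (95% interval -0.4218 to 0.6682, limma adjusted p = 0.9201). The groups thus ranked control AKI, GR-deficient AKI, GR-deficient healthy and control healthy, of which the last 2 did not differ beyond their spread. Without control AKI replicate 1 the genotype difference in AKI was -0.79 (adjusted p = 0.00545).

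Ptges, the inducible membrane-bound prostaglandin E synthase, measured 8.50, 8.57 and 8.62 in control AKI cortex, against 7.90, 7.75 and 7.84 in control healthy cortex. It averaged 8.57 ± 0.06 in control AKI and 7.83 ± 0.08 in control healthy cortex (SD, n = 3 each), far apart for their spread. Ptges rose by 0.74 ± 0.108 (SE, 1.67-fold, limma adjusted p = 9.64e-05). In GR-deficient mice it measured 8.55, 8.39 and 8.24 in AKI cortex and 8.28, 8.20 and 8.04 in healthy cortex, and these arrays overlapped. The difference there was 0.22 (95% interval -0.008288 to 0.4539, limma adjusted p = 0.2927). All GR-deficient healthy arrays lay above all control healthy arrays, a difference of 0.34 that did not pass (95% interval 0.1103 to 0.5725, unadjusted p = 0.006781, limma adjusted p = 0.2633). The AKI groups overlapped, with a genotype difference of -0.17 (95% interval -0.4034 to 0.0588). Of the 4 groups only control healthy cortex was clear of its neighbour in rank.

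Ptgds, the lipocalin-type prostaglandin D synthase, differed by genotype in AKI. It measured 8.94, 8.52 and 8.50 in GR-deficient AKI cortex, against 7.63, 7.53 and 7.73 in control AKI cortex. It averaged 8.65 ± 0.25 in GR-deficient AKI and 7.63 ± 0.10 in control AKI cortex (SD, n = 3 each). Ptgds was 2.03-fold higher in GR-deficient mice (log2 difference 1.02 ± 0.209 SE, 95% interval 0.5745 to 1.47, limma adjusted p = 0.003137). In healthy cortex it measured 8.67, 9.60 and 8.65 in GR-deficient mice, against 8.10, 8.25 and 7.96 in control mice. The arrays did not overlap and the difference was 0.87, but GR-deficient healthy replicate 2 was far above the other 2 and the difference did not pass (95% interval 0.4226 to 1.318, limma adjusted p = 0.1446). Without that array the healthy difference was 0.56. The differences after glycerol did not pass in GR-deficient mice (-0.32, adjusted p = 0.4534) or in control mice (-0.48, adjusted p = 0.1141). Without GR-deficient healthy replicate 2 the difference in GR-deficient mice was -0.0088 (adjusted p = 0.987), and that in control mice passed (-0.48, adjusted p = 0.0146), as it did with only the 2 groups in the fit (adjusted p = 0.0156). In rank the GR-deficient groups came first and overlapped each other, followed by control healthy and control AKI cortex.

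Slco2a1, the prostaglandin uptake carrier, measured 9.20, 9.29 and 9.10 in GR-deficient AKI cortex and 8.46, 9.04 and 8.77 in GR-deficient healthy cortex. In control mice it measured 9.22, 9.22 and 9.42 in AKI cortex and 8.91, 9.05 and 8.95 in healthy cortex. In each genotype the AKI arrays lay above the healthy ones, while the genotypes overlapped in both conditions. The difference after glycerol was 0.44 ± 0.134 in GR-deficient mice (95% interval 0.1526 to 0.7265, limma adjusted p = 0.07943) and 0.32 ± 0.134 in control mice (0.0333 to 0.6072, adjusted p = 0.09519), and neither passed. The value in GR-deficient mice rested on single healthy arrays: it was 0.29 without GR-deficient healthy replicate 1 (adjusted p = 0.246), also 0.29 without both arrays that stand apart (adjusted p = 0.152), and 0.58 without replicate 2, where it passed (adjusted p = 0.0335). In control mice it passed without GR-deficient healthy replicate 1, which only changes the shared spread (0.32, adjusted p = 0.0355), and without both arrays that stand apart (0.36, adjusted p = 0.0259).

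Hpgd, the enzyme that inactivates prostaglandins, was the only one of the 8 genes for which no 2 of the 4 groups overlapped. It measured 8.60, 8.46 and 8.47 in GR-deficient AKI cortex and 9.12, 8.79 and 8.81 in GR-deficient healthy cortex. In control mice it measured 6.74, 7.10 and 7.08 in AKI cortex and 8.33, 8.13 and 7.96 in healthy cortex. From the highest down, the order was GR-deficient healthy, GR-deficient AKI, control healthy and control AKI. Injured GR-deficient cortex thus held more Hpgd RNA than uninjured control cortex, array by array, a comparison across both factors that was not tested.

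Hpgd fell by 1.17 ± 0.135 (SE) after glycerol in control mice, to 6.97 ± 0.21, against 8.14 ± 0.19 in healthy controls (SD, n = 3 each, 2.24-fold, limma adjusted p = 1.061e-05). In GR-deficient mice the difference was -0.40 ± 0.135 (95% interval -0.6841 to -0.1076, limma adjusted p = 0.1173) and did not pass. In AKI cortex Hpgd was 2.90-fold higher in GR-deficient than in control mice (1.54 ± 0.135, 95% interval 1.249 to 1.826, limma adjusted p = 4.447e-06), rank 65 by p among all 19938 genes. In healthy cortex it was 1.70-fold higher (0.77 ± 0.135, 95% interval 0.4796 to 1.056), and passed at a limma adjusted p of 0.04218. That call among healthy mice held in only 3 of the 12 fits that leave out 1 array (those that drop replicate 1 or 3 of control AKI or replicate 3 of GR-deficient healthy mice), with adjusted p-values from 0.015 to 0.219. Without GR-deficient healthy replicate 1 the healthy difference was 0.66 (adjusted p = 0.219), and without both arrays that stand apart it was 0.66 (adjusted p = 0.046).

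Ptger3, the EP3 receptor, measured 8.04, 8.41 and 8.41 in control AKI cortex, against 9.28, 9.36 and 9.38 in control healthy cortex. Every AKI array lay well below every healthy array. Ptger3 fell by 1.05 ± 0.167 (SE), to 8.29 ± 0.22 after glycerol, against 9.34 ± 0.05 in healthy controls (SD, n = 3 each, 2.07-fold, limma adjusted p = 0.0001962). In GR-deficient mice it measured 8.92, 9.54 and 9.25 in AKI cortex and 10.02, 9.68 and 9.47 in healthy cortex. These overlapped, and the difference of -0.49 did not pass (95% interval -0.8437 to -0.1294, limma adjusted p = 0.1209). In AKI cortex Ptger3 was 1.93-fold higher in GR-deficient than in control mice (0.95 ± 0.167, 95% interval 0.5888 to 1.303, limma adjusted p = 0.001087). In healthy cortex the arrays of the genotypes did not overlap, but the difference of 0.38 did not pass (95% interval 0.02561 to 0.7399, limma adjusted p = 0.4369) and was 0.23 without GR-deficient healthy replicate 1.

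Ptger4, the EP4 receptor, moved the other way in control mice. It measured 7.30, 7.61 and 7.43 in control AKI cortex, against 6.77, 6.81 and 6.70 in control healthy cortex, a rise of 0.68 ± 0.12 (SE, 1.61-fold, limma adjusted p = 0.0004577). GR-deficient AKI cortex measured 7.27, 7.09 and 6.84 and GR-deficient healthy cortex 6.92, 6.86 and 6.80. These overlapped, with a difference of 0.21 (95% interval -0.04626 to 0.4678, limma adjusted p = 0.3852). In AKI cortex Ptger4 was 1.30-fold lower in GR-deficient than in control mice (-0.38 ± 0.12, 95% interval -0.6362 to -0.1221), with an adjusted p of 0.04193 by limma, although the highest GR-deficient array, 7.27, and the lowest control array, 7.30, nearly met. This call held in only 3 of the 12 fits without 1 array (control AKI replicate 1, GR-deficient AKI replicate 1 or GR-deficient healthy replicate 1), with adjusted p-values from 0.0209 to 0.193. It was also lost with cyclic loess normalization (-0.35, limma adjusted p = 0.075) and with only the 2 groups in the fit (limma adjusted p = 0.124).

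**Figure D3:**
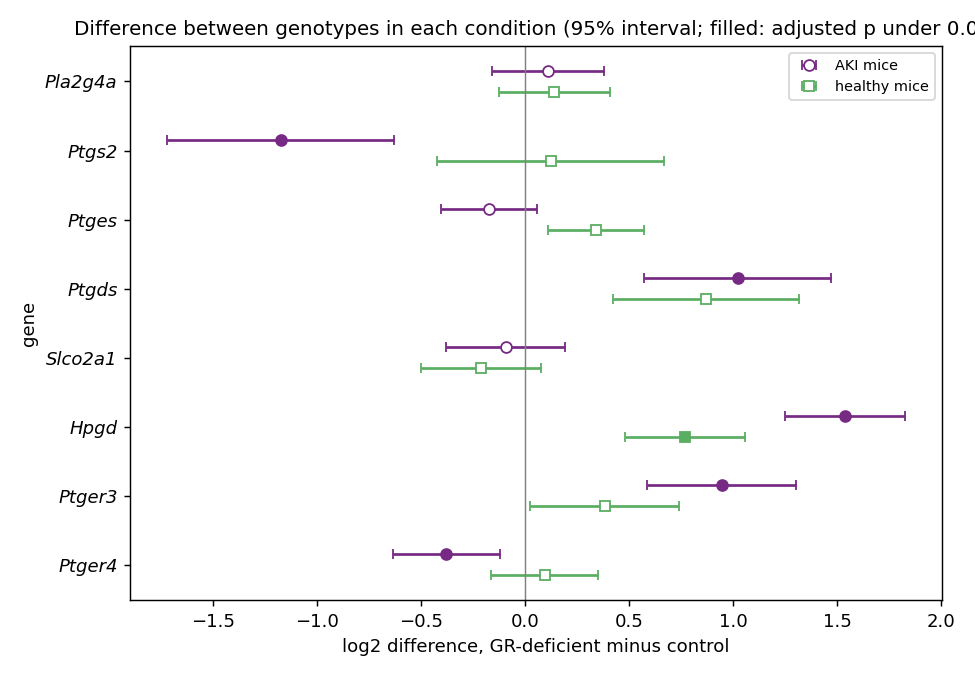
Log2 difference between GR-deficient and control cortex (x axis) for each of the 8 genes (y axis), in AKI mice (circles) and healthy mice (squares), with 95% intervals from the limma fit. Filled symbols passed at an adjusted p under 0.05. In AKI mice Ptgds, Hpgd and Ptger3 lie to the right and Ptgs2 and Ptger4 to the left of 0.

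Between the genotypes, 5 of the 8 genes differed in AKI cortex: Ptgds, Hpgd and Ptger3 were higher and Ptgs2 and Ptger4 lower in GR-deficient mice. Over all genes 17.4% passed there, 10.0% higher and 7.34% lower, and arrays of the genotypes did not overlap for these 5 and for 32.8% of all genes. The median difference was 0.00872 for the 8 genes and -0.0434 for all genes. In healthy cortex 1 of the 8 passed, Hpgd, where 0.145% of all genes did, 0.0351% higher (7 genes) and 0.110% lower (22 genes). Hpgd ranked 24 by p among the 29. Without both arrays that stand apart, 5 of the 8 passed in AKI cortex and 1 in healthy cortex, while 3934 and 26 of all genes did. The healthy arrays of the genotypes did not overlap for 4 of the 8 (Ptges, Ptgds, Hpgd and Ptger3, all higher in GR-deficient mice), where this held for 18.6% of all genes.

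The interaction, which is the difference after glycerol in GR-deficient mice minus that in control mice, passed for 3 of the 8 genes. Over all genes 11.5% passed, 7.39% positive and 4.06% negative. For Ptgs2 it was -1.30 ± 0.36 (SE, 95% interval -2.069 to -0.5274, limma adjusted p = 0.02995). For Ptges it was -0.51 ± 0.153 (95% interval -0.8406 to -0.1869, adjusted p = 0.04223), and for Hpgd 0.77 ± 0.19 (95% interval 0.3621 to 1.177, adjusted p = 0.01659). In each of these 3 genes the difference after glycerol was nearer to 0 in GR-deficient than in control mice. The other 5 did not pass. Ptger4 had -0.47 (95% interval -0.8377 to -0.1106, adjusted p = 0.09199). It passed with array weights (-0.55, adjusted p = 0.00617) and in 1 of the 12 fits without 1 array, that without control AKI replicate 1 (-0.55, adjusted p = 0.0448). It did not pass without both arrays that stand apart (-0.52, adjusted p = 0.0685) or with the replicate block (adjusted p = 0.11). Ptger3 had 0.56 (95% interval 0.0581 to 1.068, adjusted p = 0.1552). Pla2g4a, Slco2a1 and Ptgds had -0.03, 0.12 and 0.15, with intervals that include 0.

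These calls differ in how far they rest on single arrays. For Hpgd the interaction held in 11 of the 12 fits without 1 array and was lost without control healthy replicate 1 (0.67, adjusted p = 0.0539). For Ptgs2 it held in 6 of the 12, with values from -1.587 to -0.9112, and was lost without control healthy replicate 1 (-1.11, adjusted p = 0.0863), without any one of the GR-deficient AKI arrays (adjusted p = 0.0503, 0.0738 and 0.0566) and without GR-deficient healthy replicate 1 or 3 (adjusted p = 0.0779 and 0.0514). Without control AKI replicate 1 the Ptgs2 value was -0.91 (adjusted p = 0.0181), and without both arrays that stand apart -0.84 (adjusted p = 0.0357). For Ptges it held in only 3 of the 12 fits (without control AKI replicate 1, GR-deficient AKI replicate 1 or GR-deficient healthy replicate 3), with adjusted p-values from 0.0297 to 0.114. Without both arrays that stand apart the Ptges value was -0.49 (adjusted p = 0.0546).

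Levels of 4 lists of cell type markers are given beside Ptgs2, Ptges and Ptger4, and not all of them moved with these genes. The mean log2 level of 8 neutrophil markers lay between 5.333 and 5.654 in GR-deficient AKI, 5.191 and 5.404 in GR-deficient healthy, 6.219 and 6.522 in control AKI and 5.076 and 5.389 in control healthy arrays. In control mice 6 of these 8 rose after glycerol, and in AKI cortex 6 were lower in GR-deficient than in control mice, the directions of Ptgs2 in those comparisons. Over all genes 13.6% rose and 15.1% fell after glycerol in control mice. Between genotypes in AKI cortex, 10.0% of all genes were higher and 7.34% lower in GR-deficient mice. In GR-deficient mice 0 of the 8 neutrophil markers passed after glycerol, where 4.64% of all genes did. Of 8 macrophage markers, 2 rose (Cd68 and Cd14) and 1 fell (Csf1r) in control mice, and the list mean lay between 7.542 and 7.939 in GR-deficient AKI, 7.346 and 7.514 in GR-deficient healthy, 7.958 and 8.248 in control AKI and 7.336 and 7.468 in control healthy arrays. After glycerol in GR-deficient mice 2 macrophage markers rose, where 3.29% of all genes did. Between genotypes in AKI cortex, 1 macrophage marker was higher and 2 were lower in GR-deficient mice. For 5 injured tubule markers the means were 8.371 to 9.176 in GR-deficient AKI, 6.641 to 7.819 in GR-deficient healthy, 10.93 to 10.95 in control AKI and 6.711 to 6.87 in control healthy arrays. After glycerol in control mice 4 of the 5 rose, and 1 had a negative difference that did not pass. In GR-deficient mice 3 of the 5 rose. Between genotypes in AKI cortex, 4 of the 5 were lower and 1 was higher in GR-deficient mice. Of 8 fibroblast and mural cell markers, 4 rose (Pdgfra, Pdgfrb, Col1a1 and Col3a1) and 1 fell (Dcn) in control mice, and the list mean lay between 8.303 and 8.325 in GR-deficient AKI, 7.998 and 8.181 in GR-deficient healthy, 8.221 and 8.428 in control AKI and 7.951 and 8.15 in control healthy arrays. After glycerol in GR-deficient mice 2 of these fibroblast and mural cell markers rose. Between genotypes in AKI cortex 0 were higher and 1 was lower in GR-deficient mice, and the range of list means in GR-deficient AKI lay within that of control AKI. The part of these 4 lists in the Ptgs2, Ptges and Ptger4 differences was not tested.

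Other lists moved with Hpgd and Ptger3 after glycerol in control mice, and with Hpgd, Ptger3 and Ptgds between genotypes in AKI cortex. Beside the counts of these lists, 15.1% of all genes fell after glycerol in control mice. Between genotypes in AKI cortex, 10.0% of all genes were higher in GR-deficient mice. The mean of 6 markers of the thick ascending limb and macula densa was 10.22 to 10.38 in GR-deficient AKI, 10.37 to 10.44 in GR-deficient healthy, 8.732 to 9.294 in control AKI and 10.22 to 10.3 in control healthy arrays, and 4 of the 6 fell after glycerol in control mice. Slc12a1, the salt carrier of that segment, averaged 9.23 ± 0.48 in control AKI and 12.12 ± 0.05 in control healthy cortex (SD, n = 3 each). Nos1, the macula densa marker of the list, averaged 6.35 ± 0.16 in control AKI and 6.65 ± 0.07 in control healthy cortex and did not pass (limma adjusted p = 0.06765). For 8 proximal tubule markers the means were 12.14 to 12.3 in GR-deficient AKI, 12.2 to 12.64 in GR-deficient healthy, 10.8 to 11.24 in control AKI and 12.7 to 12.73 in control healthy arrays. All 8 fell in control mice, and all 8 were higher in GR-deficient than in control AKI cortex. Of 8 distal tubule and collecting duct markers, 5 fell in control mice and 5 were higher in GR-deficient than in control AKI cortex. The mean of these distal markers was 9.408 to 9.814 in GR-deficient AKI and 9.84 to 10.1 in GR-deficient healthy arrays. It was 9.037 to 9.112 in control AKI and 9.708 to 9.9 in control healthy arrays. After glycerol in GR-deficient mice 2 proximal tubule, 1 distal and 0 thick ascending limb markers fell, where 1.35% of all genes did. A list of 4 genes known beside Ptgds in tissues such as the meninges (Apod, Ogn, Dpt and Slc6a13) had means of 7.505 to 7.591 in GR-deficient AKI, 7.3 to 7.642 in GR-deficient healthy, 6.581 to 7.014 in control AKI and 7.506 to 7.618 in control healthy arrays. In AKI cortex 3 of these 4 were higher in GR-deficient than in control mice (Ogn by 1.84, Slc6a13 by 1.20 and Dpt by 0.51), with a median difference of 0.856 over all 4. Apod had a negative difference there and did not pass. After glycerol 2 genes of this list fell in control mice. In GR-deficient mice 1 of them rose, where 3.29% of all genes did, and 0 fell. The part of these 4 lists in the Hpgd, Ptger3 and Ptgds differences was not tested. In healthy cortex the 8 proximal tubule markers were all lower in GR-deficient mice, with a median difference of -0.193, and 0 of them passed, where 0.145% of all genes did.

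**Figure D4:**
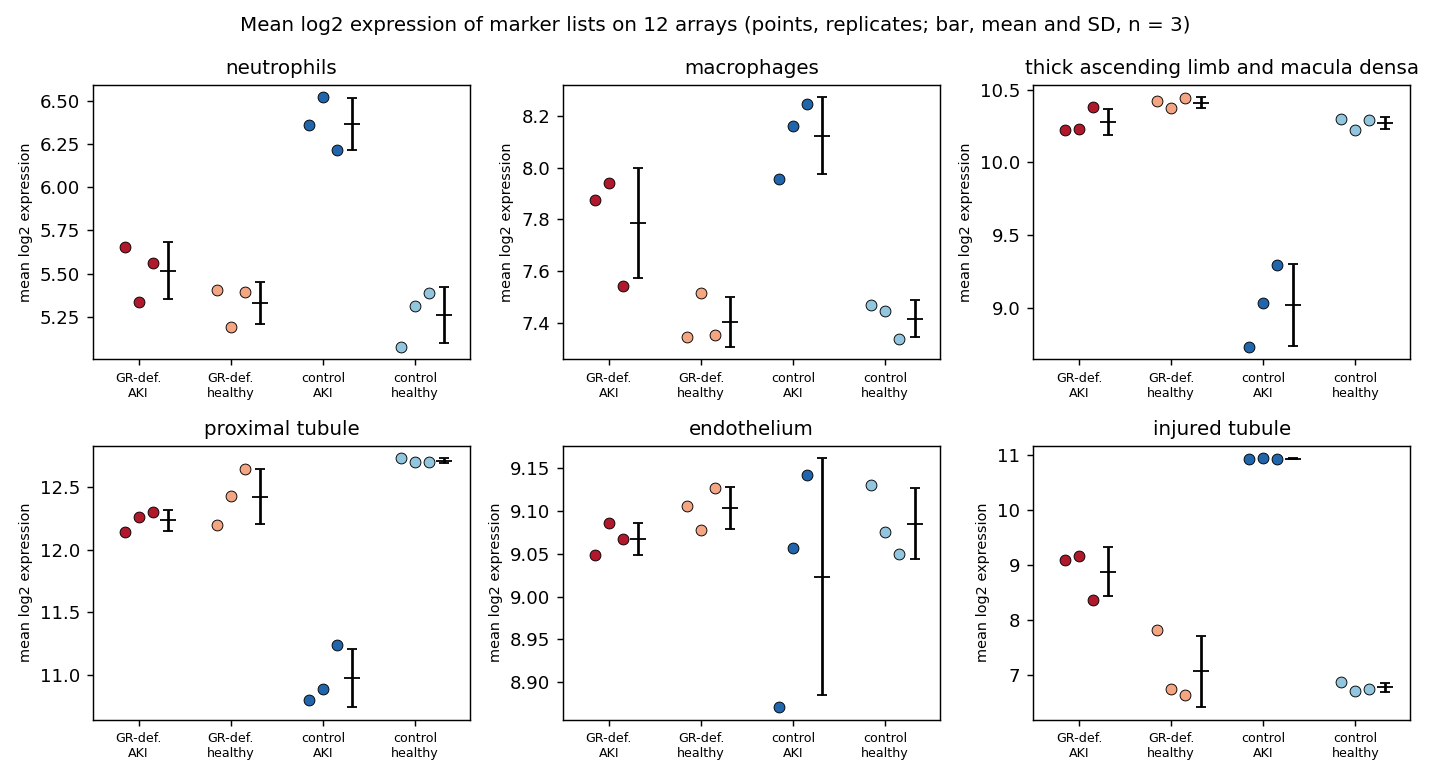
Mean log2 expression (y axis) of 6 marker lists in the 4 groups (x axis, GR-deficient AKI, GR-deficient healthy, control AKI, control healthy). Points are arrays and the bar beside them is the mean with its SD over 3 arrays. Control AKI arrays are the highest for neutrophil markers (6.219 to 6.522) and the lowest for thick ascending limb markers (8.732 to 9.294).

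Beyond the 9 genes, 34 of 39 further genes of prostaglandin synthesis, conversion, transport and reception were measured. In control mice 9 of these 34 rose and 6 fell after glycerol, where 13.6% of all genes rose and 15.1% fell, and in GR-deficient mice 4 rose and 1 fell, where 3.29% and 1.35% of all genes did. The median difference was 0.0551 in control and 0.0408 in GR-deficient mice. Between genotypes 5 were higher and 6 lower in AKI cortex (10.0% and 7.34% of all genes), and 0 higher and 1 lower in healthy cortex (0.0351% and 0.110% of all genes).

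Several enzymes that act on prostaglandins or their relatives changed in both genotypes. Cbr3, a carbonyl reductase, averaged 7.39 ± 0.27 in GR-deficient AKI and 6.06 ± 0.41 in GR-deficient healthy cortex, against 8.26 ± 0.21 in control AKI and 5.68 ± 0.17 in control healthy cortex (SD, n = 3 each). It rose by 1.33 in GR-deficient mice (limma adjusted p = 0.001449) and by 2.58 in control mice (adjusted p = 1.854e-07). Its relative Cbr1, which can reduce prostaglandin E, rose by 0.97 in GR-deficient mice (adjusted p = 0.008068) and by 1.08 in control mice (adjusted p = 0.0003511). The Cbr1 call in GR-deficient mice was lost without GR-deficient AKI replicate 1 (0.91, adjusted p = 0.057). Abcc4, a pump that exports prostaglandins and other organic anions, rose by 1.13 in GR-deficient mice (adjusted p = 0.0002068) and by 1.11 in control mice (adjusted p = 7.806e-06).

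Akr1c18, an aldo-keto reductase that inactivates progesterone, was the gene of the list that passed in healthy cortex. It averaged 7.85 ± 0.22 in GR-deficient healthy cortex and 10.05 ± 0.08 in control healthy cortex (SD, n = 3 each), 4.59-fold lower (limma adjusted p = 0.00167). After glycerol it fell in both genotypes, by 1.51 in GR-deficient and by 2.41 in control mice, and in AKI cortex it was lower in GR-deficient mice (log2 difference -1.29, adjusted p = 0.002479). Prxl2b, a synthase that makes prostaglandin F, rose by 1.09 in GR-deficient mice (adjusted p = 0.03929), with an SD of 0.78 among the AKI arrays, and that call held in 4 of the 12 fits without 1 array.

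Other genes passed after glycerol in control mice and not in GR-deficient mice, which by itself does not show that the responses differed. Of the genes named here, the interaction passed for Pla2g2e, Pla2g5, Ptgr2, Ptger1 and Ptgfrn. It did not pass for Pla2g7, Pla2g12a, Hpgds, Ptges3, Tbxas1 and Ptgis. Among phospholipases A2, Pla2g2e rose by 1.12 (limma adjusted p = 1.474e-06), Pla2g7 by 0.64 and Pla2g12a by 0.36, while Pla2g5 fell by 0.78. For Pla2g2e the difference in GR-deficient mice was 0.26 (adjusted p = 0.2008), and for Pla2g5 it was 0.25 (adjusted p = 0.3669). Hpgds, the haematopoietic prostaglandin D synthase, rose by 1.10 (adjusted p = 0.0003066), and Ptges3, a cytosolic prostaglandin E synthase and Hsp90 co-chaperone, by 0.59. Tbxas1, the thromboxane synthase, fell by 0.54 (adjusted p = 0.01216, held in 10 of 12 fits without 1 array) and Ptgis, the prostacyclin synthase, by 0.41 (adjusted p = 0.04283, held in 5 of 12). Ptgr2, the reductase that acts on prostaglandins after Hpgd, fell by 1.27 (adjusted p = 1.955e-05), and the EP1 receptor gene Ptger1 by 0.97 (adjusted p = 1.16e-05). Ptgfrn, a partner of the prostaglandin F receptor, rose by 0.71.

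**Figure D5:**
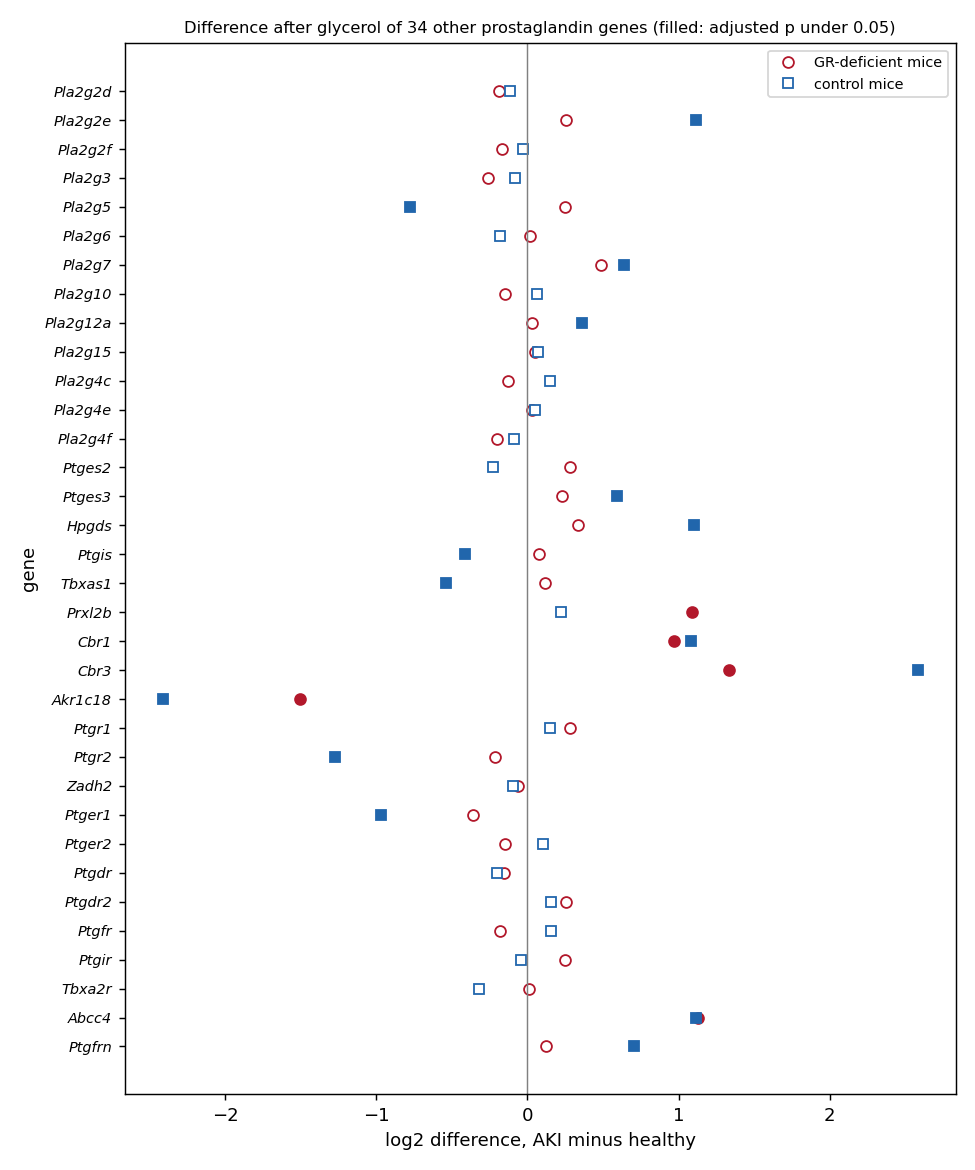
Log2 difference between AKI and healthy cortex (x axis) for the 34 other prostaglandin genes measured (y axis), in GR-deficient mice (circles) and control mice (squares). Filled symbols passed at an adjusted p under 0.05. Cbr3 lies farthest to the right, at 2.58 in control mice, and Akr1c18 farthest to the left, at -2.41 in control mice.

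Ptgr2 and Hpgd, which act in sequence on the same prostaglandins, both fell in control mice, and both were higher in GR-deficient than in control AKI cortex. For Ptgr2 that genotype difference was 0.93 (9.78 ± 0.08 in GR-deficient and 8.85 ± 0.39 in control AKI cortex, SD, n = 3 each, limma adjusted p = 0.0007727). In AKI cortex Pla2g2e was lower in GR-deficient mice (-0.89, adjusted p = 4.606e-05), as were Ptgfrn (-0.67) and Cbr3 (-0.87). Pla2g5 (0.71), Ptger1 (0.63), Abcc4 (0.42) and Prxl2b (1.04) were higher, of which the calls of Abcc4 and Prxl2b held in 8 and 9 of the 12 fits without 1 array. Hpgds (-0.57, adjusted p = 0.04545) and Ptgfr (-0.31, adjusted p = 0.04642) were lower by calls that each held in 4 of the 12 fits without 1 array. The calls of Hpgds and Abcc4 were also lost with cyclic loess normalization (adjusted p = 0.0554 and 0.0696). With only the 2 groups in the fit, those of Hpgds, Ptgfr and Prxl2b were lost (adjusted p = 0.0744, 0.0872 and 0.0836).

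Among 10 genes measured of a list on arachidonate supply and control of the pathway, 3 rose and 1 fell after glycerol in control mice (13.6% and 15.1% of all genes), and 1 rose in GR-deficient mice (3.29% of all genes). Acsl4, which activates arachidonate for storage in lipids, rose by 0.60 in GR-deficient mice (limma adjusted p = 0.007773) and by 1.51 in control mice (adjusted p = 2.117e-07). Faah, which splits anandamide and so frees arachidonate, fell by 1.07 in control mice (adjusted p = 3.095e-06), while the difference in GR-deficient mice was -0.26 (adjusted p = 0.2103). Il1b, a cytokine known to induce Ptgs2, averaged 6.94 ± 0.24 in control AKI and 6.08 ± 0.05 in control healthy cortex (SD, n = 3 each) and rose by 0.86 (adjusted p = 0.0008561). Between genotypes in AKI cortex, 1 of the 10 was higher (Faah) and 2 were lower (Acsl4 and Il1b) in GR-deficient mice. Over all genes 10.0% were higher and 7.34% lower there. The calls of Faah and Acsl4 held in all 12 fits without 1 array. The Il1b difference was -0.66 (adjusted p = 0.01063), a call lost without control AKI replicate 2 (-0.58) or GR-deficient AKI replicate 3 (-0.49). With cyclic loess normalization this call was also lost (-0.60, adjusted p = 0.0504), and the interaction for Il1b did not pass. Anxa1, a glucocorticoid-inducible protein known to restrain phospholipase A2, rose by 0.70 in control mice (adjusted p = 0.002068), and its difference in GR-deficient mice was 0.54 (adjusted p = 0.056).

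The sister lipoxygenase pathway, which makes leukotrienes from arachidonate, had 13 of 14 genes measured. In control mice 1 rose (Alox5ap, the 5-lipoxygenase activating protein, 0.43) and 1 fell (Alox12, -0.42, held in 9 of the 12 fits without 1 array) after glycerol, where 13.6% of all genes rose and 15.1% fell. In GR-deficient mice 0 of the 13 passed, where 4.64% of all genes did. In AKI cortex, where 10.0% of all genes were higher and 7.34% lower, Ltc4s was higher (0.50) and Alox5ap (-0.38) and Aloxe3 (-0.46) were lower in GR-deficient mice, and these calls held in 9, 11 and 3 of the 12 fits without 1 array. The median difference after glycerol was -0.0365 in control mice and 0.0352 in GR-deficient mice.

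For the 3 members with the widest span of group means, the genes with the most similar pattern were taken by Pearson correlation over the 12 arrays, among 18260 named genes. Because the arrays fall into 4 groups, these values mainly compare group means, and the correlation of deviations from the group means is given beside each. Ptgs2 was most like Procr (r = 0.978, within groups 0.867), Cdca4 (0.971, within groups 0.811), Slc2a1 (0.969, within groups 0.849), Snu13 (0.968, within groups 0.828) and Cdc42ep4 (0.966, within groups 0.812). Hpgd was most like Car5a (r = 0.972, within groups 0.799), Etnk1 (0.972, within groups 0.635), Bace1 (0.967, within groups 0.731), Slco2b1 (0.961, within groups 0.286) and Ppp1r1a (0.961, within groups 0.581). Ptger3 was most like Ndufa6 (r = 0.984, within groups 0.874), Fam81a (0.979, within groups 0.917), Sptssa (0.977, within groups 0.806), Pdk1 (0.974, within groups 0.832) and Ndufb5 (0.973, within groups 0.777).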

How the data were processed

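The authors deposited log2 expression per probe set. The submitters' processing notes name RMA (robust multichip averaging), affy and oligo, with no versions. The log base is not written in the file, and array maxima between 14.73 and 14.9 fit a log2 scale. RMA normalizes arrays to each other, so a change shared by most genes would be removed. No depth applies to arrays, and their number limits the precision.

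Of 35556 probe sets, 21789 had exactly 1 gene symbol in GEO's platform annotation, which gave 19938 genes, and dim genes were kept. A model of 4 group means was fitted with lmFit and eBayes of limma 3.58.1 under R 4.3.3 (8 residual and 6.26 prior degrees of freedom). Tests were two-sided, with Benjamini-Hochberg adjustment over all genes and a threshold of 0.05. A set of 5 comparisons was made. The script was tested on simulated data.

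Members, gene lists and tests were chosen with earlier results of these data known. All members are named, together with list genes that passed in at least 1 comparison and, for the 3 members with the widest span, the 5 most similar genes, leaving out predicted genes and small RNAs. Marker genes that are named belong to the lists set beside the members. Alternatives were quantile and cyclic loess normalization, dim genes left out, the mean of all probe sets, trend and robust prior, array weights, the replicate number as a block, only the groups compared, each array left out, and, chosen after seeing the data, both arrays that stand apart left out. Raw scans were not used here.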

Additional observations from a re-analysis of the deposited data

Results flagged for a closer look

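The response to glycerol differed between the genotypes, by the interaction test of the same limma fit, for 3 of the 8 genes, for 6 of 34 other prostaglandin genes, for 2 of 10 genes of arachidonate supply and control and for 0 of 13 lipoxygenase pathway genes, where 11.5% of all genes passed. Each value is the difference after glycerol in GR-deficient mice minus that in control mice on the log2 scale, with 3 arrays in each of the 4 groups. Among the members, it was -1.30 for Ptgs2 (adjusted p = 0.0299), -0.51 for Ptges (adjusted p = 0.0422) and 0.77 for Hpgd (adjusted p = 0.0166).

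Among the phospholipases A2 it was -0.86 for Pla2g2e (adjusted p = 0.00173) and 1.02 for Pla2g5 (adjusted p = 0.00327), and both held in all 12 fits without 1 array. Cbr3 had -1.25 (adjusted p = 0.00765) and Ptgr2 had 1.05 (adjusted p = 0.00646), both also held in all 12. Ptger1 had 0.61 (adjusted p = 0.022), held in 8 of the 12, and Ptgfrn had -0.59 (adjusted p = 0.0338), held in 4. Of the genes of arachidonate supply, Faah had 0.81 (adjusted p = 0.00323) and Acsl4 had -0.91 (adjusted p = 0.00202), held in all 12.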

How the results depend on the processing

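Of 347 differences of the members under settings other than leaving out 1 array, 317 kept direction and side of the threshold, 8 no longer passed, 18 newly passed and 4 turned sign. The turned values were all interactions that did not pass: Pla2g4a 0.002065 and Ptgds -0.07115 with array weights, and Ptgds -0.0008569 and Slco2a1 -0.06649 without both arrays that stand apart. Array weights raised most counts, to 8 members and 9648 genes for glycerol in control mice, 4 and 3196 in GR-deficient mice, 2 and 301 for the genotype in healthy mice, 7000 genes for the genotype in AKI and 4905 for the interaction. For glycerol in GR-deficient mice the members that passed numbered 1 and all genes 1419 with dim genes left out (which also drops Ptger4). With only the 2 groups 1 member and 681 of all genes passed there. Without both arrays that stand apart 2 members and 1291 of all genes did. For the genotype in healthy mice 0 members passed with quantile normalization, with only the 2 groups and with the replicate block. All genes that passed numbered 39, 14 and 25 in those settings. They numbered 61 with cyclic loess, 74 without dim genes and 71 with the trend and robust prior. The cause of these changes was not tested. Same-numbered samples did not deviate together (correlations from -0.41 to 0.252), and not every sample correlated best with its own number, so the samples share only a number. A replicate block ended the calls of Hpgd between healthy genotypes (0.77, adjusted p = 0.0767), Ptger4 between AKI genotypes (-0.38, adjusted p = 0.053) and the Ptges interaction (-0.51, adjusted p = 0.0601), and no other call of a member. Leaving out 1 array at a time gave 5 to 6 members and 4651 to 6188 genes for glycerol in control mice, 0 to 1 and 277 to 1448 in GR-deficient mice, 0 to 1 and 10 to 115 for the genotype in healthy mice, 4 to 5 and 2414 to 3906 in AKI, and 0 to 4 and 1556 to 2696 for the interaction. Among those fits, sign changes occurred for Ptgs2 between healthy genotypes (-0.06002 to 0.2159) and in the interactions of Pla2g4a (-0.1231 to 0.08246), Slco2a1 (-0.03063 to 0.2639) and Ptgds (-0.01198 to 0.4667).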
